A study of Gallus gallus with 6 samples.

Results

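The transcripts of S100 calcium-binding proteins and annexins were measured by RNA-seq in the uterovaginal junction of breeder hens, the stretch of oviduct between uterus and vagina that stores sperm. The genes described are the rows of the deposited table with 1 of 10 symbols, 6 S100 genes (S100A1, S100A4, S100A6, S100A9, S100A10 and S100A11) and 4 annexin genes (ANXA1, ANXA2, ANXA5 and ANXA6), of 20285 rows in all. Each symbol matched exactly 1 row, and all 10 passed the filter on low counts that left 15655 genes to test. The heat stress group was 3 libraries from hens kept at 36 °C for 6 h, and the thermoneutral group was 3 libraries from hens kept at 23 °C. The labels give neither strain nor age nor laying stage. Each library held pooled RNA of 4 hens out of 24, so the spread between replicates is a spread between pools and a single hen cannot be seen.

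S100 proteins are small calcium sensors built from a pair of EF-hand loops. On binding calcium most of them open a surface that grips a target protein, and many of those targets are annexins. Annexins are calcium-dependent phospholipid-binding proteins that dock on the inner face of the plasma membrane, where they link membrane to cytoskeleton, take part in vesicle traffic and help to reseal torn membrane. In mammals S100A10 forms a stable complex with ANXA2 without needing calcium, S100A11 binds the tail of ANXA1, and S100A6, also called calcyclin, binds the calcyclin-binding protein CACYBP. The oviduct moves large amounts of calcium in the uterus, next to the segment sampled here.

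Library totals ran from 23438814 to 29502991 counts. Among 9 measured markers of oviduct, edgeR called EMX2 (higher under heat stress) and DESeq2 also PAX2. Over all genes edgeR called 19.8%, and DESeq2 26.1% of those to which it gave an adjusted p. The most abundant of the 9, the progesterone receptor PGR, had 565 to 632 CPM under heat stress and 467 to 591 CPM at 23 °C. The least abundant, HOXD10, averaged 0.573 CPM under heat stress and 0.685 CPM at 23 °C. Of 5 genes listed for the egg-white-secreting magnum, OVALX and MEP1A averaged under 1 CPM. The others listed, OVAL, OVM and TF, were not matched to a single row, so their level was not measured here. CPM are counts scaled to a common library size after TMM, a correction for library composition. On the first principal component over all tested genes (46.8% of the variance), heat stress replicates 1, 2 and 3 scored 10.9, 44.1 and 37.1, and thermoneutral replicates 1, 2 and 3 scored −27.1, −31.3 and −33.7. Heat stress replicate 1 thus stood apart from its group, and S100, annexin and partner genes that gained or lost a call without it are given with both values.

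Of the 10 genes, 3 were lower under heat stress and 0 were higher. The 3 that fell were S100A11, S100A10 and ANXA6, to 0.72, 0.73 and 0.69 of the thermoneutral level. Calls were made with the quasi-likelihood test of edgeR at an adjusted p under 0.05 (Benjamini-Hochberg, over all 15655 genes), which called 19.8% of all genes, 9.52% as lower and 10.2% as higher. At an unadjusted p under 0.05, 6 of the 10 passed, 5 lower and ANXA1 higher, against 36.6% of all genes (18.2% lower, 18.4% higher). DESeq2 called 5 of the 10 and gave S100A9 no adjusted p, adding S100A6 as lower (adjusted p = 0.0486) and ANXA1 as higher (adjusted p = 0.00928), against 26.1% of the genes to which it gave an adjusted p (12.7% lower, 13.4% higher). In 6 of the 10 genes all libraries of one group lay beyond all of the other, 5 lower and 1 higher under heat stress, as did 42.6% of all genes tested (21.0% lower, 21.5% higher). The median log2 change was −0.39 over the S100 genes and −0.13 over the annexins, against −0.01 over all genes tested. The S100 rows are 417 to 584 bases long. With a trend over gene length removed, the log2 change of every S100 gene moved up, among them S100A11 to −0.40, S100A10 to −0.37 and S100A6 to −0.18. In that fit 2 of the 10 were called (S100A11 and ANXA6, both lower), against 3020 of all 15655 genes.

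**Figure D1:**
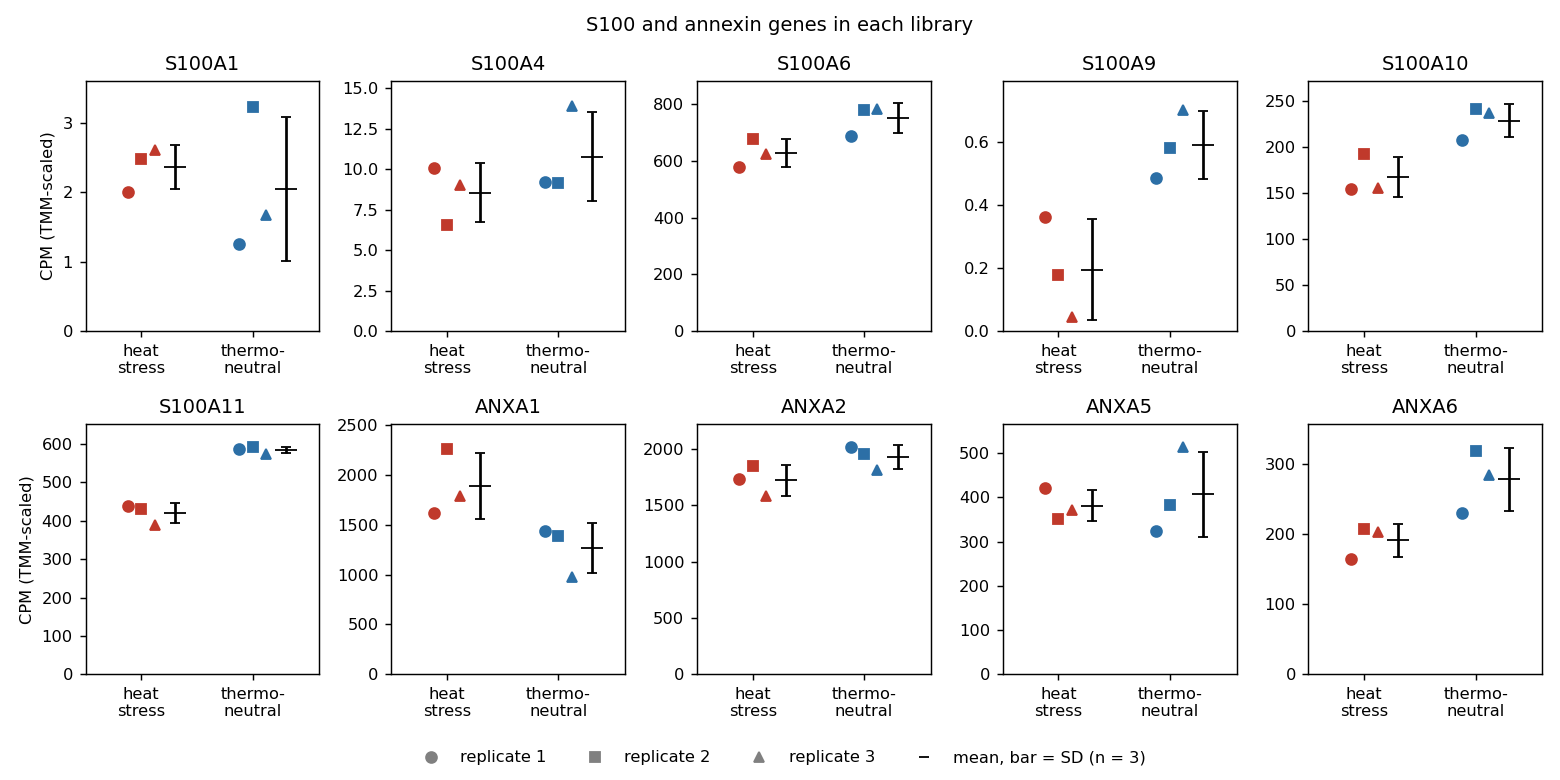
CPM of each of the 10 genes (vertical axes, each starting at 0) in the 3 heat stress libraries (red) and the 3 thermoneutral libraries (blue), with marker shape giving the replicate and the black bar the mean ± SD (n = 3). S100A11, at 390 to 438 CPM under heat stress and 575 to 592 CPM at 23 °C, has the widest gap between groups relative to its spread, and ANXA1 is the only one of the 10 with all heat stress libraries above all thermoneutral libraries.

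The levels per transcript length spanned more than 3 orders of magnitude. On the deposited FPKM scale (fragments scaled to transcript length and library size), S100A6 was the highest of the 10 in all 6 libraries, at 1447 ± 82.6 FPKM under heat stress and 1863 ± 122 FPKM at 23 °C (mean ± SD, n = 3). It ranked between 11th and 26th of all 20285 rows, depending on the library. Below the first 4 places the order was the same in all 6 libraries, with S100A10 in place 5, then ANXA5, ANXA6, S100A4, S100A1 and S100A9. S100A10 held 357 ± 39.1 FPKM under heat stress and 525 ± 38.0 FPKM at 23 °C, ANXA5 held 220.2 ± 25.8 and 251 ± 58.5 FPKM, and ANXA6 held 65.8 ± 6.71 and 103 ± 15.9 FPKM. S100A4 followed at 18.1 ± 4.18 FPKM under heat stress and 24.3 ± 6.07 FPKM at 23 °C, S100A1 at 5.14 ± 0.599 and 4.78 ± 2.41 FPKM, and S100A9 at 0.325 ± 0.272 and 1.04 ± 0.184 FPKM.

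Places 2 to 4 changed between groups. ANXA1 was in place 3, 2 and 2 in heat stress replicates 1, 2 and 3 and in place 4 in all thermoneutral libraries. Its FPKM were 925, 1236 and 996 under heat stress and 867, 829.6 and 585 at 23 °C. ANXA2 held 971, 991 and 859.9 FPKM under heat stress, a range that overlaps that of ANXA1 there, and 1193, 1146 and 1059 FPKM at 23 °C. S100A11 held 757, 709.9 and 655 FPKM under heat stress, below both annexins in each of these libraries, and 1069, 1069.7 and 1036 FPKM at 23 °C, where its range overlaps that of ANXA2 and lies above that of ANXA1.

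**Figure D2:**
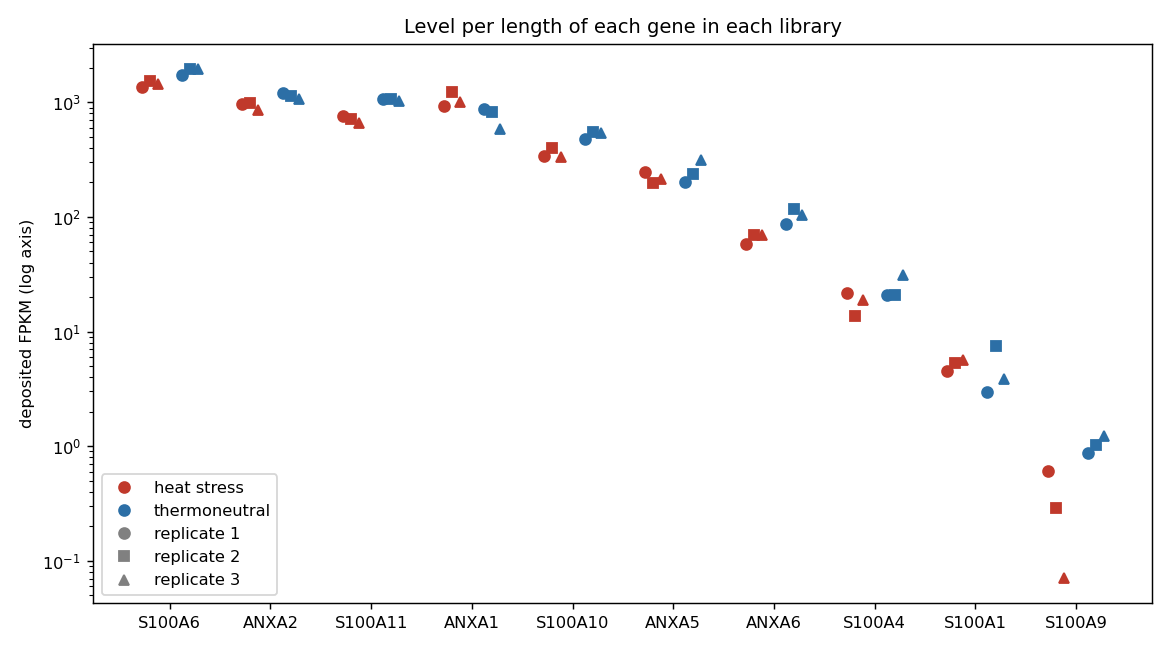
Deposited FPKM (vertical log axis) of the 10 genes in the 3 heat stress libraries (red, left of each gene) and the 3 thermoneutral libraries (blue, right), ordered by the thermoneutral mean, with marker shape giving the replicate. S100A6 is highest in every library, and ANXA1 lies at 925 to 1236 FPKM under heat stress and at 585 to 867 FPKM at 23 °C.

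Among the S100 genes, S100A11 had the smallest p. S100A11 is the S100 protein that in mammals pairs with ANXA1 at membranes. Its row lies on chromosome 25 from 2386866 to 2388673 on the plus strand (coordinates of the deposited table, GRCg6a). It had 438, 430.1 and 389.9 CPM in heat stress replicates 1, 2 and 3, against 586, 592 and 575 CPM in thermoneutral replicates 1, 2 and 3. The groups lie far apart, and the thermoneutral libraries differed from each other by a coefficient of variation of only 1.48%, the lowest within-group spread of the 10 genes. The log2 change was −0.48 with a standard error (SE) of 0.08 and an adjusted p of 0.0109, a 1.39-fold lower level under heat stress. The SE was taken as the size of the change over the root of its F value.

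S100A10, also known as p11, is the light chain of the complex with ANXA2. In mammals it carries ion channels to the cell surface and binds plasminogen there. Its row lies on chromosome 25 from 464699 to 466723 on the minus strand. S100A10 had 154, 192 and 155 CPM under heat stress, against 208, 241 and 236 CPM at 23 °C. The highest heat stress library stayed below the lowest thermoneutral library. The log2 change was −0.45 (SE 0.11, adjusted p = 0.0277), a 1.37-fold lower level. With a trend over gene length removed it was −0.37, at an adjusted p of 0.0519, and without heat stress replicate 1 it was −0.38, at an adjusted p of 0.0562.

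S100A6, an S100 protein of epithelial cells and fibroblasts, is on chromosome 25 from 3308021 to 3309315 on the minus strand. It had 578, 678 and 623 CPM under heat stress, against 688, 779.7 and 783 CPM at 23 °C. The groups do not overlap, but heat stress replicate 2 and thermoneutral replicate 1 lie close to each other. Its log2 change of −0.26 (SE 0.09) did not pass, with an adjusted p of 0.0865.

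S100A4, an S100 protein known from motile and mesenchymal cells that binds nonmuscle myosin, lies on chromosome 25 from 3309972 to 3310726, 656 bp from S100A6 on the same strand. It had 10.1, 6.56 and 8.999 CPM under heat stress, against 9.18, 9.17 and 13.9 CPM at 23 °C. The groups overlap, and thermoneutral replicate 3 alone lies well above the rest. The log2 change was −0.33 (SE 0.23, adjusted p = 0.336), and it was −0.10 with thermoneutral replicate 3 omitted and −0.16 with heat stress replicate 2 omitted. The identity of the row is not certain: a second row without a symbol, on the same chromosome from 3312351 to 3314646, is described in the table with the NCBI gene number that RefSeq (GRCg7b) gives to S100A4. That second row held 0.526 ± 0.168 CPM under heat stress and 0.549 ± 0.056 CPM at 23 °C (SD, n = 3), and how reads of such near neighbours were divided is not stated.

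S100A1, known from heart and skeletal muscle where it acts on calcium release and uptake, was near the lower end, on chromosome 25 from 3328411 to 3329269. It had 50, 69 and 60 reads under heat stress, against 31, 78 and 43 reads at 23 °C. The groups overlap, and the lowest and the highest of the 6 libraries are both thermoneutral. The log2 change of 0.21 (SE 0.37, adjusted p = 0.717) turned to −0.05 without thermoneutral replicate 1.

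S100A9, a calprotectin subunit of granulocytes in mammals, was close to absent, on chromosome 25 from 3296971 to 3298411. It had 9, 5 and 1 reads under heat stress, against 12, 14 and 18 reads at 23 °C. All heat stress libraries lie below all thermoneutral libraries, but the sums behind this are only 15 and 44 reads. The log2 change was −1.56 (SE 0.60, adjusted p = 0.104), and without heat stress replicate 1 it was −2.27 at an adjusted p of 0.0477. The transcript that the table cites for this row is listed by RefSeq (GRCg7b) under the symbol S100A12, with S100A9 as an older name. Of 9 measured markers of heterophils, the granulocytes of birds, 5 had enough counts to be tested. Of these 1 (EXFABP) was lower under heat stress and 0 were higher, against 9.52% and 10.2% of all genes. The sum of the 9 ran from 75.2 to 88.2 CPM under heat stress and from 99.9 to 134 CPM at 23 °C. The lipocalin EXFABP made up most of it, at 65.9 to 71.2 CPM under heat stress and 86.0 to 114 CPM at 23 °C. The sum is thus mainly a reading of EXFABP, and whether heterophils were its source in this tissue was not tested. Of the others tested, CSF3R (log2 change −0.50) and MMP9 (−0.62) were lower and LYZ (0.49) and CXCR1 (0.13) higher. None of these others passed, and their groups overlap. The cathelicidins CATHL1, CATHL2, CATHL3 and CATHB1 averaged under 1 CPM in both groups and were not tested. CATHL2 had 0, 2 and 2 reads under heat stress and 3, 6 and 10 reads at 23 °C. CATHL3 had 0, 0 and 2 reads against 6, 4 and 11 reads. Both were lower without overlap, as were 21.0% of all genes tested, a share taken without these rows. CATHL1 and CATHB1 overlapped between groups, with CATHB1 at 0 in heat stress replicates 1 and 3 and thermoneutral replicate 1. The part of heterophil number in the S100A9 value was not tested, and in bulk tissue fewer cells of a type and less RNA per cell cannot be told apart.

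Some S100 rows share genome space with other genes, and no source states whether counting used strand. The row of S100A11 lies within COPA, a coat protein gene on the opposite strand with 5351 to 7044 reads per library and a log2 change of −0.17 (SE 0.07, adjusted p = 0.121). S100A9 lies within EDSC, also on the opposite strand, and S100A6 overlaps the end of EDSC by 619 bp. EDSC had 1404 to 1996 reads per library and a log2 change of −0.18 (adjusted p = 0.238), so it held many times more reads than S100A9 and far fewer than S100A6. ANXA2 overlaps ICE2 by 166 bp on the same strand, and ICE2 had 468 to 598 reads per library (log2 change −0.21, adjusted p = 0.211). ANXA6 overlaps by 128 bp a row without a symbol on the opposite strand, which had 24 to 45 reads per library. Reads from such overlaps are not certain to be separate.

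Among the annexins, ANXA6 was called lower. It is the annexin with a duplicated core, which bridges membranes and in mammals is abundant in muscle and stromal cells, and its row is on chromosome 13 from 13735681 to 13748138. ANXA6 had 164, 206 and 202 CPM under heat stress, against 230.1, 318 and 284 CPM at 23 °C. All heat stress libraries lie below all thermoneutral ones, and replicate 1 is the lowest of each group. The log2 change was −0.54 (SE 0.14, adjusted p = 0.0349), a 1.45-fold lower level. Without heat stress replicate 1 it was −0.42, at an adjusted p of 0.064. Of 9 smooth muscle markers 1 was lower (SYNPO2, adjusted p = 0.0559 without heat stress replicate 1) and 0 were higher, against 9.52% and 10.2% of all genes. The 9 markers summed to 5119, 6816 and 6206 CPM under heat stress and to 5364, 8581 and 8051 CPM at 23 °C. Their sum was lowest in replicate 1 of each group and overlapped between groups. The median log2 change of the 9 was −0.35, against −0.01 over all genes tested. The part of the amount of smooth muscle in the ANXA6 value was not tested.

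ANXA1 ran the other way. It is the annexin that glucocorticoids induce in mammals and that limits inflammation there, and its row is on chromosome Z from 36034182 to 36052126. ANXA1 had 1611, 2255 and 1786 CPM under heat stress, against 1431, 1383 and 977 CPM at 23 °C. The groups do not overlap, although heat stress replicate 1 and thermoneutral replicate 1 lie closer to each other than either does to the far end of its own group. The log2 change was 0.58 (SE 0.18), equal to 1.49 times the thermoneutral level, and the adjusted p of 0.0623 missed the threshold. Without heat stress replicate 1, the library that stands apart, the log2 change was 0.70 and the adjusted p 0.042.

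ANXA2, the partner of S100A10 and a plasminogen-binding annexin of epithelia, lies on chromosome 10 from 5524170 to 5556443. It was the most abundant of the 10 by CPM at 23 °C. ANXA2 had 1732, 1851 and 1578 CPM under heat stress, against 2016, 1955 and 1812 CPM at 23 °C. The ranges overlap at 1 library each. The log2 change of −0.16 (SE 0.09, adjusted p = 0.247) did not pass.

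ANXA5, the annexin used to detect exposed phosphatidylserine on dying cells, lies on chromosome 4 from 53964699 to 53995130. It had 421, 351 and 373 CPM under heat stress, against 324, 383 and 513 CPM at 23 °C. The heat stress libraries all fall inside the thermoneutral range. The log2 change of −0.09 (SE 0.17, adjusted p = 0.726) became 0.11 without thermoneutral replicate 3, the highest library.

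**Figure D3:**
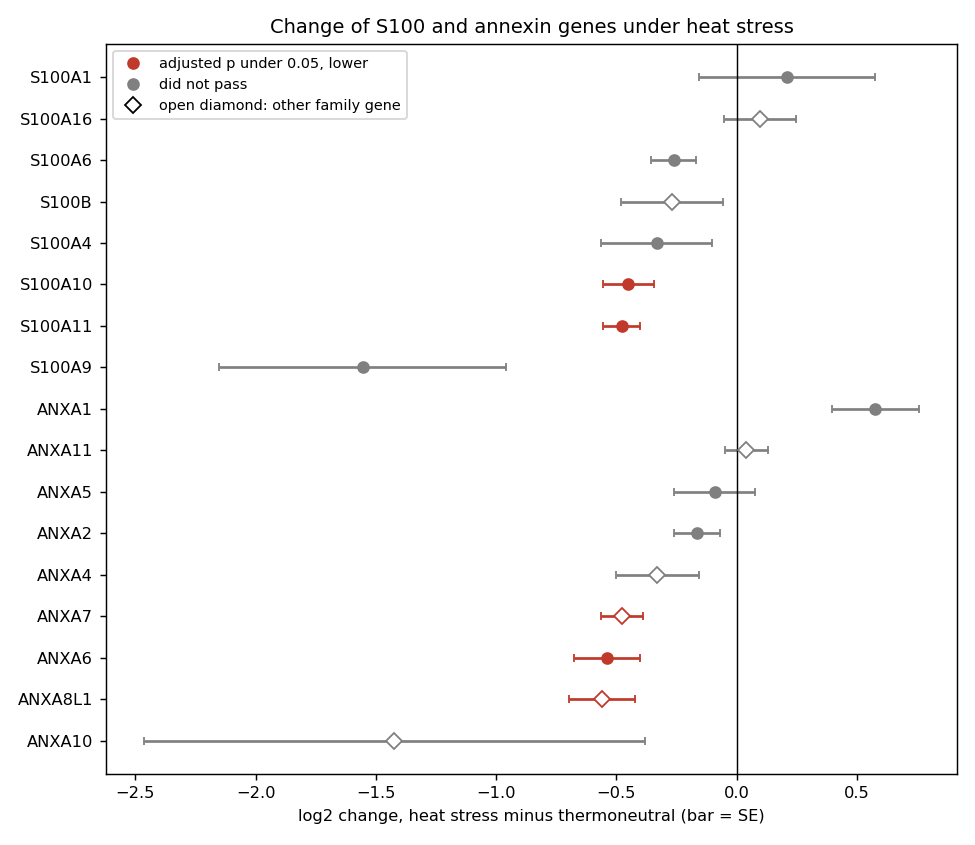
Log2 change for heat stress minus thermoneutral (horizontal axis) with its SE (bar) for the 10 genes (filled circles) and 7 other tested S100 and annexin genes (open diamonds), S100 genes above and annexins below. Red marks the 5 genes that passed at an adjusted p under 0.05, S100A10, S100A11, ANXA6, ANXA7 and ANXA8L1, all lower under heat stress, and ANXA1 has the highest value at 0.58.

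Sums over each family were also compared, with no test between the families. The 6 S100 genes together held 1183, 1309 and 1180 CPM under heat stress, against 1493, 1626 and 1611 CPM at 23 °C. The 4 annexins together held 3929, 4663 and 3939 CPM under heat stress, against 4002, 4039 and 3587 CPM at 23 °C. The S100 sums do not overlap between groups, while the annexin sums do. S100A6, S100A10 and S100A11 hold most of the S100 sum. Each was lower without overlap, as were 21.0% of all genes tested, so the separation of the sum is no further support. In the annexin sum the higher ANXA1 is added to ANXA2, ANXA5 and ANXA6, whose log2 changes were negative. Within the annexins, ANXA6 alone was called. As the share of all counts of a library, the 10 genes made up 0.492% to 0.564% under heat stress and 0.536% to 0.585% at 23 °C.

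Ratios within a library do not depend on how libraries are scaled, and 3 pairs whose proteins bind each other were compared. The S100A11 to ANXA1 ratio of CPM was 0.272, 0.191 and 0.218 under heat stress, against 0.409, 0.428 and 0.589 at 23 °C. All heat stress libraries lie below all thermoneutral ones, by 2.09-fold on average (log2 difference −1.06, exact two-sided permutation p = 0.1, adjusted p = 0.15 over 3 pairs). With 3 libraries per group the smallest p such a test can give is 0.1. The S100A6 to CACYBP ratio was 4.35, 3.63 and 3.33 under heat stress, against 7.52, 8.28 and 7.90 at 23 °C. These values too are fully separate, with a log2 difference of −1.08 (exact permutation p = 0.1, adjusted p = 0.15), where S100A6 itself changed by −0.26 and CACYBP by 0.83 on the log2 scale. In both pairs the S100 gene was lower and its partner higher, each without overlap between groups. The separation of these ratios, and so their permutation p, was therefore fixed by the single genes and is no further support. The S100A10 to ANXA2 ratio was 0.0889, 0.104 and 0.0984 under heat stress, against 0.103, 0.123 and 0.130 at 23 °C. Here heat stress replicate 2 lies just above thermoneutral replicate 1, and the log2 difference of −0.29 had an exact permutation p of 0.2, also 0.2 adjusted. The ANXA1 to ANXA6 ratio, a pair chosen after its values were seen and therefore not tested, was 9.82, 10.9 and 8.82 under heat stress and 6.22, 4.35 and 3.44 at 23 °C.

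**Figure D4:**
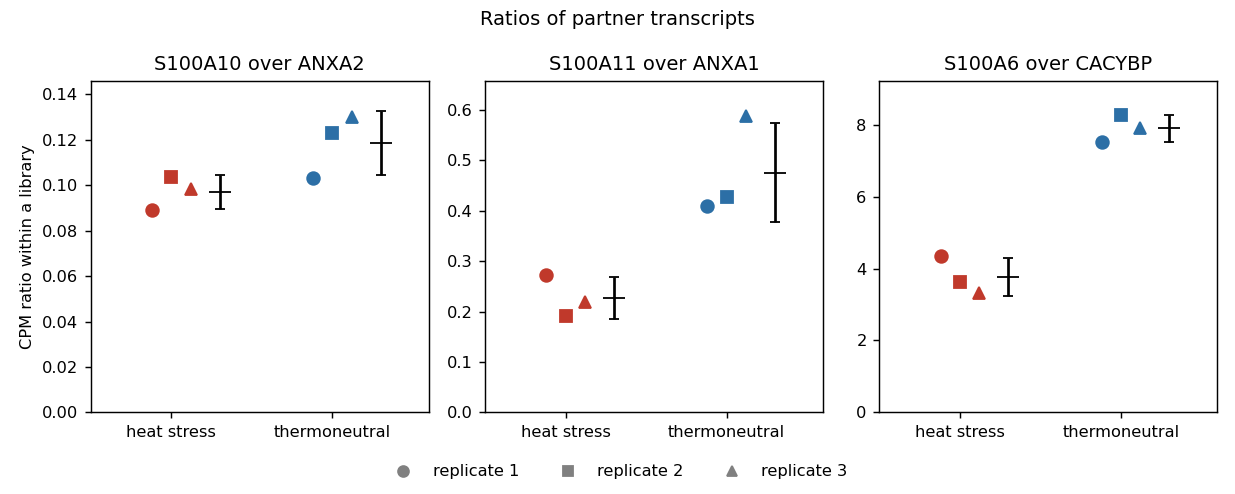
CPM ratio within each library (vertical axes, each starting at 0) for 3 pairs of transcripts whose proteins bind each other, in heat stress (red) and thermoneutral (blue) libraries, with marker shape giving the replicate and the black bar the mean ± SD (n = 3). S100A11 over ANXA1 lies at 0.191 to 0.272 under heat stress and 0.409 to 0.589 at 23 °C, and S100A10 over ANXA2 overlaps between groups.

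Outside the 10, rows were matched to 10 of 23 other listed S100 and annexin symbols, of which 7 were tested. ANXA4 and ANXA8L1 had no symbol as deposited and were named through their NCBI gene numbers. A further row without a symbol, described only by an annexin domain, did not pass (log2 change −0.12, edgeR adjusted p = 0.792). ANXA7 and ANXA8L1 were lower under heat stress and 5 did not pass, against 9.52% of all genes lower and 10.2% higher. The median log2 change of the 7 was −0.33. ANXA7, an annexin of secretory vesicles, had 81.4, 74.5 and 69.6 CPM under heat stress, against 97.7, 113 and 103 CPM at 23 °C (log2 change −0.48, SE 0.09, adjusted p = 0.0138). ANXA8L1, the most abundant of these other genes, had 565, 684 and 580.3 CPM under heat stress, against 1006, 962 and 729 CPM at 23 °C (log2 change −0.56, SE 0.14, adjusted p = 0.0306). For both genes all heat stress libraries lie below all thermoneutral libraries. When single libraries were omitted, ANXA7 passed 4 times of 6 and ANXA8L1 2 times. Without heat stress replicate 1 the log2 change of ANXA8L1 was −0.49, at an adjusted p of 0.0672. ANXA11, which in mammals binds S100A6, differed little between groups, at 427 ± 28.9 CPM under heat stress and 416 ± 32.7 CPM at 23 °C (log2 change 0.04, SE 0.09, adjusted p = 0.78, with the sign turned under upper-quartile scaling). ANXA4 (log2 change −0.33), S100B (−0.27), S100A16 (0.10) and ANXA10 (−1.42) did not pass either, at adjusted p from 0.21 to 0.676. ANXA10 ranged from 0.574 to 6.75 CPM under heat stress and from 3.26 to 23.3 CPM at 23 °C, and its log2 change was −0.21 without thermoneutral replicate 3, the highest library. S100A13, S100Z and ANXA13 had too few counts to be tested.

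Transcripts of proteins that bind S100 proteins or annexins did not move as a block. Of 16 tested partner genes 3 were higher, 1 lower and 12 did not pass, against 10.2% of all genes higher and 9.52% lower. The median log2 change of the 16 was 0.04. CACYBP, the S100A6-binding protein that also works with HSP90 and ubiquitin ligases, averaged 169 ± 31.3 CPM under heat stress and 95.0 ± 3.87 CPM at 23 °C, a log2 rise of 0.83 (SE 0.13, adjusted p = 0.0115). SUGT1, an HSP90 co-chaperone that in mammals binds S100A6, averaged 205 ± 57.1 CPM under heat stress and 95.0 ± 3.70 CPM at 23 °C (log2 change 1.11, SE 0.20, adjusted p = 0.0157). PDCD6, the EF-hand protein ALG-2 that binds ANXA7 and ANXA11, rose by 0.29 on the log2 scale (SE 0.08, adjusted p = 0.0431). MYH10, a nonmuscle myosin heavy chain of the kind S100A4 binds, fell by 0.30 on the log2 scale (SE 0.09, adjusted p = 0.0483). MYH9, another such chain on the list and named after its value was seen, did not pass (log2 change −0.04, SE 0.09, adjusted p = 0.75). When each library was left out in turn, CACYBP passed 4 times of 6, SUGT1 2 times and PDCD6 and MYH10 1 time each. Without heat stress replicate 1 the log2 change of MYH10 was −0.32, at an adjusted p of 0.0517. No row carried the symbol AHNAK, so this scaffold of the S100A10 and ANXA2 complex was not analysed here.

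Genes of calcium-triggered membrane repair gave 1 higher and 2 lower of 16 tested, with a median log2 change of −0.10. Over all genes 10.2% were called higher and 9.52% lower. The higher one of the 16 was PDCD6, which is also a partner gene. The lower ones were the calpain proteases, which cut cytoskeleton under calcium: CAPN2 averaged 34.5 ± 1.73 CPM under heat stress and 67.5 ± 11.2 CPM at 23 °C (log2 change −0.97, SE 0.13, adjusted p = 0.0092), and CAPN1 averaged 99.0 ± 3.81 and 121 ± 3.12 CPM (log2 change −0.29, SE 0.06, adjusted p = 0.0213). Leaving out each library in turn, CAPN2 passed 6 times of 6 and CAPN1 2 times. Plasminogen activation genes act on the surface where S100A10 and ANXA2 bind plasminogen. Of 5 tested, edgeR and limma-voom called 0, DESeq2 called 1 and 1 had an unadjusted p under 0.05. That was ENO1, an enolase that also binds plasminogen (log2 change −0.18, SE 0.07, adjusted p = 0.11). PLAT, tissue plasminogen activator, had a log2 change of −0.16 (SE 0.07, adjusted p = 0.157). Over all genes, edgeR called 19.8% and DESeq2 26.1%, and 36.6% had an unadjusted p under 0.05 by edgeR.

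Among other EF-hand calcium-binding genes, 5 of 22 tested were lower, 0 were higher and 17 did not pass, with a median log2 change of −0.24. Of all genes 9.52% were called lower and 10.2% higher. The EF-hand genes that fell were NCALD, a neuronal calcium sensor (log2 change −0.76, SE 0.12, adjusted p = 0.0115), PEF1, a partner of PDCD6 (−0.46, SE 0.08), CIB2 (−0.99, SE 0.23), CALU, a calcium-binding protein of the secretory pathway (−0.31, SE 0.08), and CIB1 (−0.63, SE 0.17), the last named after its value was seen. With single libraries omitted, NCALD and PEF1 passed 4 times of 6, and CIB1, CIB2 and CALU 1 time each. DESeq2 called 6 of the 22, all lower, against 12.7% lower and 13.4% higher of the genes to which it gave an adjusted p. By edgeR 10 of the 22 had an unadjusted p under 0.05, all of them lower. Over all genes 18.2% were lower and 18.4% higher at that unadjusted threshold. Non-overlapping groups were found for 12 of the 22, 11 lower and 1 higher, against 42.6% of all genes tested (21.0% lower, 21.5% higher).

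Some cell type markers differed between groups while others did not. For comparison with the counts below, edgeR called 9.52% of all genes lower and 10.2% higher, and 36.6% had an unadjusted p under 0.05. DESeq2 called 12.7% lower and 13.4% higher of the genes to which it gave an adjusted p. Macrophage markers had 4 of 9 lower and 0 higher, C1QA, C1QB, C1QC and VSIG4 (the last at an adjusted p of 0.051 without heat stress replicate 1), and summed to 122 to 138 CPM under heat stress and 158 to 179.8 CPM at 23 °C. Fibroblast markers had 3 of 8 lower and 0 higher, LUM, PDGFRA and OGN (LUM and OGN were not called without heat stress replicate 1), with sums of 3869 to 4100 CPM under heat stress and 3577 to 5359 CPM at 23 °C. By edgeR epithelial markers had 1 of 7 lower (ELF3) and 0 higher, with sums of 6502 to 7774 CPM under heat stress and 6680 to 7532 CPM at 23 °C. EPCAM averaged 2361 CPM under heat stress and 1999 CPM at 23 °C, without overlap (log2 change 0.24, edgeR adjusted p = 0.104). DESeq2 called EPCAM higher and ELF3 and KRT18 lower. With a trend over gene length removed EPCAM was called higher and ELF3 was not called, nor was ELF3 without heat stress replicate 1. Ciliated cell markers had 1 of 7 lower and 0 higher, with sums of 1878 to 2186 CPM under heat stress and 1905 to 2313 CPM at 23 °C. Of 8 endothelial markers 1 was lower and 0 higher. By edgeR 0 of 7 lymphocyte and 0 of 5 erythroid markers were called, with 2 and 1 at an unadjusted p under 0.05, and by DESeq2 1 of each, CD4 and HBBA. The part of these markers in the changes of S100A10, S100A11 and ANXA1 was not tested.

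The genes most like S100A11 and ANXA6 across the 6 libraries were sought among 8671 other genes with a symbol and a mean of at least 10 CPM. Most like S100A11 by Pearson correlation of log2 CPM were DAP3, a mitochondrial ribosomal protein (r = 0.9987), AAMP (r = 0.9971) and RABEPK (r = 0.9968). DAP3, AAMP and RABEPK were lower under heat stress too (log2 change −0.45, −0.27 and −0.83). Most like ANXA6 were TLN1, the integrin-linking protein talin (r = 0.9986), WFS1 (r = 0.9921) and SNRPN (r = 0.991), of which none passed the edgeR test (adjusted p from 0.062 to 0.14). These values rest on 6 libraries that share the split into 2 groups, and 347 genes exceeded r = 0.95 with S100A11 and 65 with ANXA6.

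How far the calls rest on single libraries differed among the genes. Omitting 1 library at a time, S100A11 passed 4 times of 6, S100A10 2 times and ANXA6 1 time. With heat stress replicate 1 omitted, 3 of the 10 passed (S100A9 and S100A11 lower, ANXA1 higher), against 23.2% of all genes. Omitting heat stress replicate 2 left S100A10 and S100A11, against 9.23% of all genes, and omitting heat stress replicate 3 left 0, against 1.87%. With thermoneutral replicate 1 omitted all 3 passed, against 10.6% of all genes, with thermoneutral replicate 2 omitted 0 passed, against 2.52%, and with thermoneutral replicate 3 omitted S100A11 alone passed, against 7.68%. S100A11 missed the threshold without heat stress replicate 3 (adjusted p = 0.0532) and without thermoneutral replicate 2 (adjusted p = 0.0533). The log2 change of S100A11 stayed between −0.49 and −0.43, that of S100A10 between −0.55 and −0.38, that of ANXA6 between −0.66 and −0.42 and that of ANXA1 between 0.42 and 0.70.

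**Figure D5:**
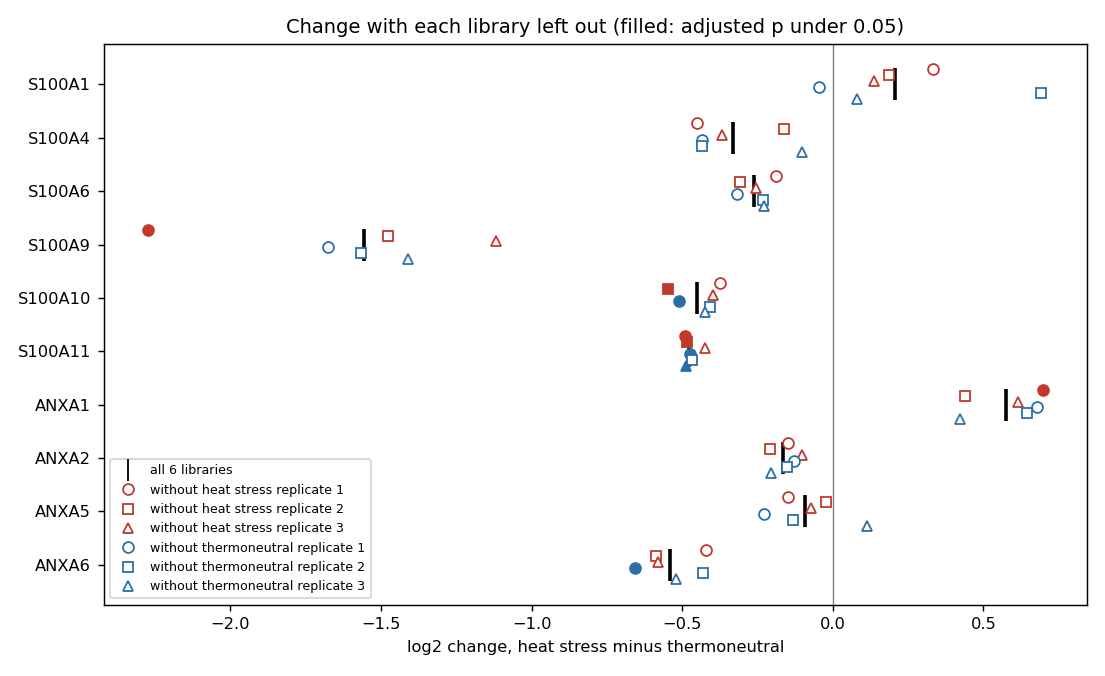
Log2 change for heat stress minus thermoneutral (horizontal axis) of the 10 genes with all 6 libraries (black bar) and with each library left out (red, a heat stress library; blue, a thermoneutral library; shape, the replicate), filled where the adjusted p was under 0.05. S100A11 keeps to −0.49 to −0.43, while S100A1 and ANXA5 cross 0.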

How the data were processed

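Poly-A RNA of the uterovaginal junction, pooled from 4 hens per library, was sequenced from dUTP-marked libraries, per the labels' protocols. The authors deposited read counts per gene and FPKM in 1 table. The submitters' processing notes name fastp, HISAT2 2.0.5, featureCounts 1.5.0-p3 and the build GRCg6a, while no source used here gives the annotation release or the strand setting. The deposited FPKM were used for levels per length, and the counts for all tests.

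Counts were scaled by TMM and tested with edgeR 4.0.16 in R 4.3.3 (filterByExpr, robust quasi-likelihood fit, Benjamini-Hochberg over 15655 genes, threshold 0.05, 4630 rows removed), with no covariate. Of the rows, 12494 have a symbol in the table and 690 more were named through NCBI gene numbers in RefSeq GRCg7b. Alternatives were other scalings and filters, DESeq2 1.42.0, limma-voom 3.58.1, a replicate block, a gene length trend and each library left out. The fits were tested on simulated data. The 10 genes and all lists were chosen with earlier results of these data known. All 10 genes and other tested S100 and annexin genes could be named, and of each list up to 4 that passed by smallest adjusted p, or the 2 with the smallest p where fewer than 2 passed. Replicates are biological per the labels, so p-values set the group difference against the spread between these pools, not between single hens. Library totals were 23438814 to 29502991 counts.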

Additional observations from a re-analysis of the deposited data

How the results depend on the processing

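Over all genes, 3092 were called (1602 higher, 1490 lower), with 299 to 3699 when 1 library was left out, and upper-quartile scaling split 3054 calls into 1265 higher and 1789 lower. With 1 library left out, calls numbered 0 to 3 of the 10 S100 and annexin genes, 0 to 2 of the other family genes, 0 to 3 of the partners, 1 to 5 of the membrane repair genes, 0 of the plasminogen genes in each fit, 0 to 7 of the EF-hand genes and 1 to 12 of the cell type markers (13 with all libraries). DESeq2 called 5 of the 10 genes, 5 of 16 membrane repair genes, 1 of 5 plasminogen genes and 22 markers, where edgeR called 13 markers. Over all genes DESeq2 called 26.1% of those to which it gave an adjusted p, and edgeR 19.8%. Removing the length trend left 2 of the 10 genes and 3 of 22 EF-hand genes, with 3020 genes called in all. The summed S100 genes differed by −0.37 (log2 of CPM; −0.42 to −0.34 with a library left out) and by −0.46 on the FPKM scale, and the summed annexins by 0.11 (0.02 to 0.15). With a library left out, the log2 difference was −0.39 to −0.22 for S100A10 over ANXA2, −1.20 to −0.90 for S100A11 over ANXA1 and −1.18 to −0.99 for S100A6 over CACYBP. Signs turned for S100A1 (−0.0462 without thermoneutral replicate 1, range to 0.6898), ANXA5 (0.1122 without thermoneutral replicate 3, range from −0.2302), S100A16 (−0.0322 without heat stress replicate 2, range to 0.2433) and ANXA11 (−0.0014 under upper-quartile scaling, −0.0207 without thermoneutral replicate 3, range to 0.1132). PDCD6 was not called under upper-quartile scaling or the stricter filter, nor MYH10 without a filter. The causes were not tested.

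The labels do not say that a replicate number marks a shared batch or day, so the numbers were not taken as a pairing. Same-numbered libraries deviated from their group means with correlations of −0.0481, 0.2496 and 0.0716, and libraries of different number with −0.2741 to 0.2069. A replicate block gave 2722 calls over all genes, 2 partner genes and 4 of the 10 S100 and annexin genes, adding ANXA1 as higher (log2 change 0.58, adjusted p = 0.046). Counts of 15 and 44 reads limit S100A9.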
